A study of Mus musculus with 7 samples.

Results

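The comparison covers 6 of the 20 hashtag samples of a mouse whole bone marrow data set, HRY.4, HRY.5 and HRY.6 against WTY.3, WTY.4 and WTY.5. Marrow of spine, hips, femur and tibia had its red cells lysed, each sample was marked with its own antibody-linked oligonucleotide (a hashtag), and samples were pooled for droplet 3′ single-cell RNA sequencing. Pool WBM_1 held HRY.4 and WTY.3, and pool WBM_3 held HRY.5, HRY.6, WTY.4 and WTY.5, so both pools held both groups. The members were chosen by hashtag name alone. The labels do not expand the names HRY and WTY and give neither genotype, strain, age nor treatment for them. A condition is stated only for HRO.5 and HRO.6, samples of another group, which are called TET2-mutated. After filtering, 10299 of the 43062 kept cells belonged to the 6 samples: 2263 cells of HRY.4, 1106 of HRY.5 and 1450 of HRY.6, and 3029 of WTY.3, 928 of WTY.4 and 1523 of WTY.5. Nothing in the labels ties a hashtag to an animal of its own, so the p-values describe the spread among hashtag samples, which may be technical.

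Adult marrow makes neutrophils and monocytes from a common precursor, the granulocyte-monocyte progenitor (GMP). GMP fill primary granules with the proteases elastase and proteinase 3 and with myeloperoxidase. Immature neutrophils that follow make secondary granule proteins such as cathelicidin (Camp) and neutrophilic granule protein (Ngp), and mature neutrophils switch to receptors and inflammatory effectors. Monocytes leave this path under the control of factors that include Irf8 and Klf4. Each class is named after the marker genes that gated its cells and holds cells like that type.

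The 6 samples held 2679390 to 11901468 UMIs in kept cells, with 2255, 2442.5 and 2488.5 UMIs per cell (medians) in HRY.4, HRY.5 and HRY.6, and 2559, 1589 and 1975 in WTY.3, WTY.4 and WTY.5. The 2 libraries of WBM_3 shared 2078 cell barcodes, 9 of whose lower copies fell in these samples and were dropped. Xist, the RNA that silences an X chromosome, reached 85.8, 3.09 and 2.37 CPM, counts scaled to a common library total, in HRY.4, HRY.5 and HRY.6, and 1115, 3.13 and 2.80 CPM in WTY.3, WTY.4 and WTY.5. The Y-linked gene Ddx3y stood at 62.0, 64.6 and 60.8 CPM in HRY samples, and at 1.93, 70.7 and 72.5 CPM in WTY samples. WTY.3 alone was therefore high in Xist and low in Ddx3y, so the groups differ in these genes within WBM_1 and match within WBM_3. HRY.4 lay between WTY.3 and the WBM_3 samples in Xist, while its Ddx3y was near theirs. WTO.3 and HRO.6, also of WBM_1, had unscaled Xist of 66.0 and 41.5 CPM with Ddx3y of 42.1 and 42.4 CPM. The cause of these Xist levels was not tested. Xist was called lower in HRY in monocytes, immature neutrophils and GMP, and its calls were lost without HRY.4 or WTY.3 (adjusted p of at least 0.506). Tet2, the DNA demethylase named in the series text, had 36.7, 71.8 and 64.2 CPM in HRY and 37.9, 81.4 and 76.9 CPM in WTY samples over all cells. Its log2 fold change was -0.16 ± 0.11 (SE) over all cells, 0.02 ± 0.15 in monocytes and -0.03 ± 0.18 in GMP, with adjusted p of 0.564, 0.984 and 0.985 by edgeR's quasi-likelihood test.

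Cell composition came first, as the percent of a sample's kept cells in each class. GMP made up 7.38%, 11.5% and 6.69% of HRY.4, HRY.5 and HRY.6, against 6.04%, 2.91% and 3.81% of WTY.3, WTY.4 and WTY.5. Every HRY value lay above every WTY value, and the means were 8.52% ± 2.59 in HRY and 4.25% ± 1.61 in WTY (SD, n = 3 each). Within WBM_1 the gap was 1.34 percentage points, and within WBM_3 it was 5.73 percentage points. The exact two-sided permutation test within pools gave p = 0.167, the smallest that its 12 arrangements allow, so no class could pass, and the adjusted p was 0.667 over 12 classes. By edgeR's quasi-likelihood test on cell numbers the log2 fold change of GMP was 1.02 ± 0.38 (SE), with an adjusted p of 0.402.

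The other classes overlapped between groups or turned with the pool. Hematopoietic stem and progenitor cells (HSPC), the cells upstream of GMP, were 0.619%, 2.44% and 0.759% of HRY samples, and 0.330%, 0.539% and 1.12% of WTY samples. Immature neutrophils were 29.5%, 31.1% and 26.1% of HRY samples, and 37.2%, 20.6% and 21.0% of WTY samples, so HRY was lower in WBM_1 and higher in WBM_3. Mature neutrophils were 5.79%, 34.4% and 33.1% of HRY samples, and 12.4%, 41.7% and 29.1% of WTY samples. Mature neutrophils were thus scarcer in both WBM_1 samples than in any WBM_3 sample. Monocytes made up 17.9%, 12.3% and 25.8% of HRY samples, and 17.4%, 23.2% and 34.2% of WTY samples. Cells of the B lineage were 17.1%, 2.26% and 1.31% of HRY samples, and 8.62%, 3.45% and 3.61% of WTY samples, and were more frequent in WBM_1. Basophil or mast cells, at 1.28%, 0.362% and 0.414% of HRY samples and 0.99%, 0.108% and 0.0657% of WTY samples, were higher in HRY in each pool, with p = 0.167 by the same exact test. In WBM_3 they rest on 4 and 6 cells in HRY.5 and HRY.6, and on 1 cell each in WTY.4 and WTY.5. Conventional dendritic cells were lower in HRY in each pool, at 0.133%, 0.271% and 0.069% of HRY samples and 0.165%, 0.431% and 0.591% of WTY samples, again with p = 0.167 by that exact test. They rest on 3, 3 and 1 cells in HRY samples and on 5, 4 and 9 cells in WTY samples. Of these 25 cells 44.0% lay near the limits of the gate.

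**Figure D1:**
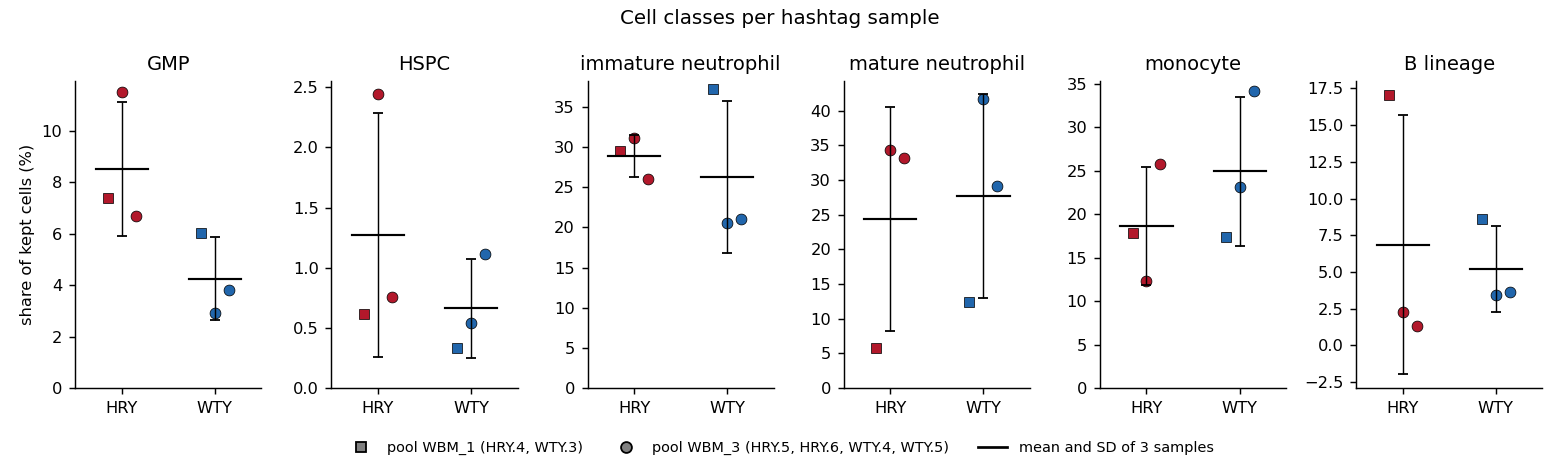
Percent of kept cells in 6 marker-defined classes, with HRY samples left of WTY samples in each panel; squares are WBM_1 samples, circles WBM_3 samples, and lines the mean and SD of 3 samples. GMP panel values run from 6.69% to 11.5% in HRY and from 2.91% to 6.04% in WTY, while the other 5 classes overlap.

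For gene expression, counts were summed per sample and class and tested with edgeR's quasi-likelihood test with pool as a term, and a gene was called at a Benjamini-Hochberg adjusted p under 0.05. Values below are CPM scaled with TMM factors, and folds are log2 HRY over WTY ± SE. Over all cells, where a change in cell numbers and a change in RNA per cell cannot be told apart, 1 gene of 11193 was called higher (0.00893%) and 0 lower (0%). DESeq2 called 49, and 1250 genes had an unadjusted p under 0.05. The called gene was BC018473, which is described last. The genes next lowest in p missed the threshold: the platelet chemokine gene Pf4 (1.81 ± 0.21, adjusted p = 0.0574), seen almost only in HRY.4 (231 CPM) and WTY.3 (61.9 CPM), and the histone gene Hist1h2ac (1.26 ± 0.15, adjusted p = 0.0574). Primary granule genes were positive in fold for 9 of 10 members over all cells, with a median of 0.77 against 0.01 for all genes, and none was called. The share of GMP, which make these proteins, moved the same way, and its part in this result was not tested.

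GMP held the most calls, with 21 genes higher (0.239% of 8775) and 10 lower (0.114%). After BC018473, Camp was the rise of lowest p, followed by the basophil proteases Prss34 and Mcpt8 and by S100a8, Fcnb and S100a9, while several genes of lower level had larger folds. Camp, which encodes the antimicrobial cathelicidin, had 9864, 5336 and 5133 CPM in HRY.4, HRY.5 and HRY.6, against 6012, 2503 and 1821 CPM in WTY.3, WTY.4 and WTY.5. HRY was higher than WTY in each pool, and the log2 fold change was 1.09 ± 0.10 (adjusted p = 9.51e-08). S100a8 and S100a9, subunits of the alarmin calprotectin, also rose. S100a9 had 21066, 11411 and 9749 CPM in HRY and 18138, 3454 and 3715 CPM in WTY samples, a fold of 1.11 ± 0.15 (adjusted p = 2.66e-05). Its gap was small in WBM_1 and wide in WBM_3. S100a8 rose by 0.78 ± 0.10 (adjusted p = 2.45e-05), with 36165, 10515 and 10034 CPM in HRY and 30518, 5130 and 4798 CPM in WTY samples.

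Of the 14 secondary and tertiary granule genes tested in GMP, 4 rose and none fell, with a median fold of 0.33 against -0.01 for all genes. Besides Camp these were Fcnb (ficolin B, a lectin that binds microbial sugars), Chil3 (a chitinase-like protein) and Ngp. Fcnb had 673, 630 and 571 CPM in HRY and 463, 295 and 265 CPM in WTY GMP, and these groups did not overlap (0.89 ± 0.12). Chil3 rose by 0.86 ± 0.15 and Ngp by 0.94 ± 0.17. Of 10 primary granule genes 2 rose, the elastase gene Elane (0.39 ± 0.08) and the proteoglycan gene Srgn (0.42 ± 0.08). Ctsc, the protease that activates granule serine proteases, fell by 0.78 on the log2 scale. The median of this list was 0.37, and 9 of its 10 members had positive folds. Pglyrp1, Wfdc21, Serpinb1a and the granule membrane gene Cd63 also rose by 0.54 to 0.86; these were picked after their values were seen. Camp, Ngp and Fcnb are among the markers that set immature neutrophils apart from GMP, and Elane is a GMP marker, so they helped to set the gate. The summed level of the 8 immature neutrophil markers in GMP was 8135 to 10090 CPM in HRY, against 3189 to 7075 CPM in WTY samples, and its part in these rises was not tested. Ngp lost its call without HRY.6 or WTY.5 (adjusted p of 0.0833 and above), Srgn and Ctsc without HRY.5, HRY.6 or WTY.5 (0.0517 and above), and Elane without any one WBM_3 sample (0.0602 and above).

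Neutrophil RNAs were also counted in cells of other classes. In B lineage cells, which do not make it, S100a9 stood at 5591, 134 and 424 CPM in HRY, against 4854, 443 and 633 CPM in WTY samples, unscaled, where the HRY.6 value rests on 19 cells. Camp in the same cells stood at 1674, 123 and 295 CPM in HRY, against 1659, 269 and 259 CPM in WTY samples. In WBM_3 S100a9 was thus lower in HRY than in WTY, Camp overlapped between the groups, and both lay far under their GMP levels. In T or NK cells Camp stood at 1882, 354 and 202 CPM in HRY, against 1418, 246 and 193 CPM in WTY samples. There HRY was higher in WBM_1, while in WBM_3 the groups overlapped, on 13 to 25 cells a sample. In WBM_1 the B lineage level of S100a9 was a large part of that in GMP, which was 15376 CPM in HRY.4 and 13426 CPM in WTY.3, also unscaled. The part of free RNA in the GMP rises was not tested.

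Kit and Tfrc were higher too. Kit, the stem cell factor receptor, had 98.8, 117 and 121 CPM in HRY and 64.2, 89.2 and 70.2 CPM in WTY GMP (0.63 ± 0.15, adjusted p = 0.0491). Tfrc, the transferrin receptor that imports iron, had 112, 123 and 132 CPM in HRY and 74.0, 49.2 and 53.7 CPM in WTY GMP (0.97 ± 0.16, adjusted p = 0.00125). For both genes every HRY value lay above every WTY value. Kit is one of the HSPC markers, so it helped to set the gate. Tfrc lost its call without HRY.6 or WTY.5 (adjusted p up to 0.0713), and Kit without HRY.4, HRY.5, HRY.6 or WTY.5 (up to 0.575). None of the 28 cell cycle genes was called in GMP, and 9 of them had positive folds.

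The genes that fell in GMP included 2 of 14 myeloid transcription factors tested, Klf4 and Cebpb. Klf4, a factor of the monocyte path and one of the monocyte markers used for the gate, had 50.4, 51.6 and 63.4 CPM in HRY and 48.4, 166 and 168 CPM in WTY samples. The whole difference lay in WBM_3 (-1.52 on the log2 scale, against 0.06 in WBM_1). Over both pools the fold was -1.04 ± 0.21 (adjusted p = 0.0116 by edgeR's test). Cebpb, a factor of emergency granulocyte production, had 255, 123 and 128 CPM in HRY and 351, 209 and 210 CPM in WTY samples (-0.62 ± 0.12). The heat shock genes Hspa8 (-0.51 ± 0.10) and Hsph1 (-1.25 ± 0.22) and the endoplasmic reticulum chaperone gene Dnajb9 (-0.97 ± 0.22) fell as well. C1galt1c1, the chaperone of an O-glycan synthase, fell by 1.01 on the log2 scale, and Golga3, a Golgi matrix gene, by 1.25. The 8 monocyte markers summed to 2799 to 3723 CPM in HRY GMP, against 2590 to 4743 CPM in WTY GMP, and in WBM_3 HRY was lower. The calls of Klf4, Cebpb, Hspa8 and Dnajb9 were lost without HRY.5, HRY.6 or WTY.5, with adjusted p of 0.0602 to 0.758.

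Mcpt8 and Prss34, proteases of basophils, were called higher and stood by far highest in HRY.4. Prss34 had 364, 24.8 and 0 CPM in HRY and 31.0, 0 and 1.03 CPM in WTY GMP. All 7 basophil or mast markers summed to 634, 120 and 19.0 CPM in HRY, against 108, 25.3 and 25.6 CPM in WTY GMP. The summed markers are thus not raised in HRY.6, and the part of basophil-like cells in the GMP gate was not tested. Hebp1, a haem-binding protein gene, had 71.8, 14.1 and 11.3 CPM in HRY and 16.9, 3.08 and 2.07 CPM in WTY GMP (2.13 ± 0.28). Its values were also highest in HRY.4, and without that sample the adjusted p was 0.0528. Mrgpra2b, an orphan G protein-coupled receptor gene, rose by 1.55 ± 0.28, and Pld4, a lysosomal nuclease gene of dendritic and myeloid cells, fell by 0.90 on the log2 scale, each higher or lower in both pools. Of the 31 calls, those of Camp, S100a8, S100a9, Fcnb, Chil3, Mcpt8 and Prss34 held whichever sample was left out. BC018473 held in the 4 of 6 leave-outs in which it was tested. Counts ran from 10 without HRY.6 to 155 without HRY.4, the WTY.4 class held 27 cells, and in a fit of all groups together 1 call remained, Camp.

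**Figure D2:**
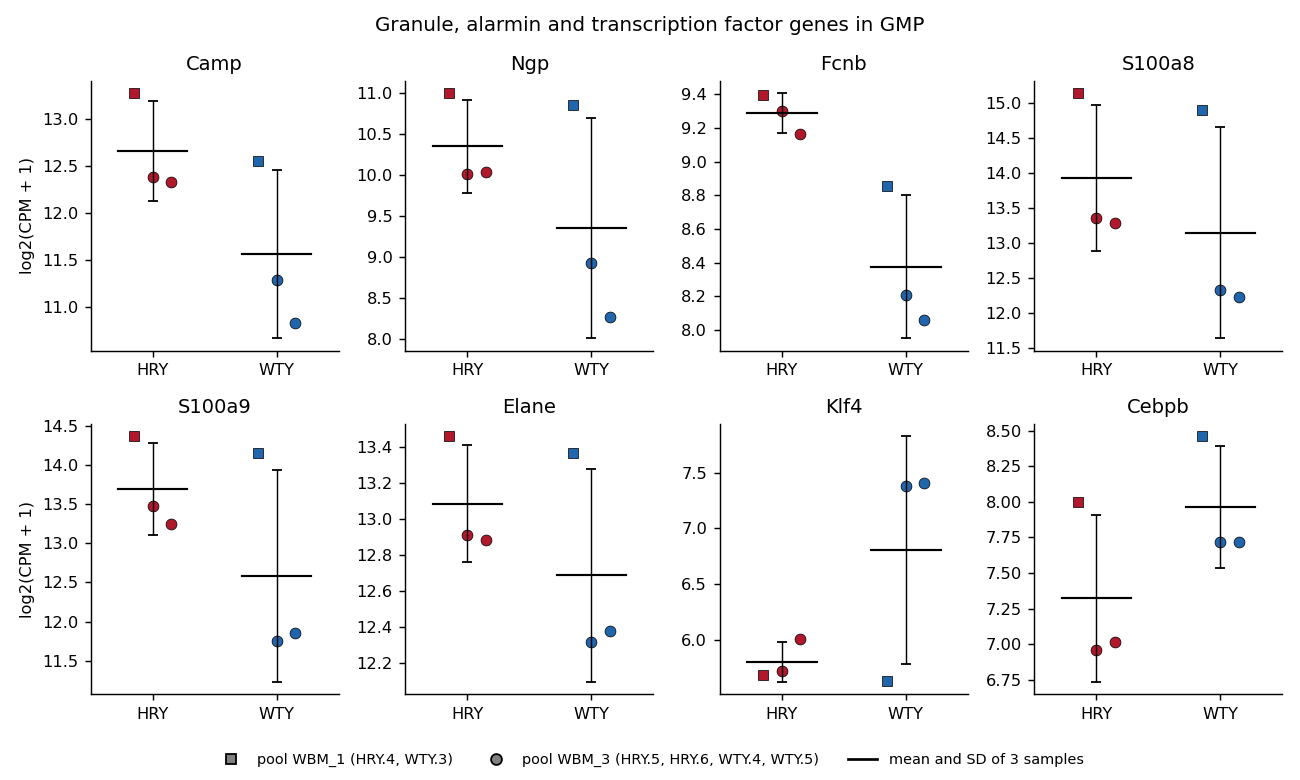
Levels of 8 genes in GMP as log2(CPM + 1), HRY left of WTY; squares are WBM_1 samples, circles WBM_3 samples, and lines the mean and SD of 3 samples. Within each pool HRY lies above WTY for the first 6 genes, with wider gaps in WBM_3, and below WTY for Cebpb, while Klf4 is near equal in WBM_1.

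In monocytes 12 genes were higher (0.129% of 9338) and 15 lower (0.161%). Ifi44 and Ifi44l, neighbouring interferon-induced genes of related sequence, had the lowest p among the rises. Both lie on the minus strand of chromosome 3 in GRCm38: Ifi44 (ENSMUSG00000028037) at 151730922 to 151749960, and Ifi44l (ENSMUSG00000039146) at 151758737 to 151762892. Ifi44 had 26.1, 56.7 and 37.0 CPM in HRY.4, HRY.5 and HRY.6, against 3.25, 0.923 and 1.91 CPM in WTY.3, WTY.4 and WTY.5. Ifi44l had 21.3, 36.5 and 24.7 CPM in HRY and 1.30, 0 and 0.764 CPM in WTY monocytes. For both genes the lowest HRY sample was several-fold above the highest WTY sample. The log2 fold changes were 4.14 ± 0.37 (adjusted p = 3.18e-06) and 4.98 ± 0.47 (adjusted p = 4.57e-06), and both calls held whichever sample was left out.

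Interferon regulatory factors bind sites built on AANNGAAA. The promoters of the pair, 250 bases before to 50 after the start in RefSeq's GRCm38.p6 annotation, are shown because the genes moved together. Capitals mark AANNGAAA on either strand.
Ifi44 (chr3:151749861-151750160, minus strand): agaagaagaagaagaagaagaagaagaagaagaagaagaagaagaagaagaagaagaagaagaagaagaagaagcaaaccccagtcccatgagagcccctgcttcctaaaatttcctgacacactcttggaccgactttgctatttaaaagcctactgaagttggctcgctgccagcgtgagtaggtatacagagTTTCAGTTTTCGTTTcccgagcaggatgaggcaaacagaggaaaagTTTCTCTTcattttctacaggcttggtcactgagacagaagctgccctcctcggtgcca
Ifi44l (chr3:151762842-151763141, minus strand): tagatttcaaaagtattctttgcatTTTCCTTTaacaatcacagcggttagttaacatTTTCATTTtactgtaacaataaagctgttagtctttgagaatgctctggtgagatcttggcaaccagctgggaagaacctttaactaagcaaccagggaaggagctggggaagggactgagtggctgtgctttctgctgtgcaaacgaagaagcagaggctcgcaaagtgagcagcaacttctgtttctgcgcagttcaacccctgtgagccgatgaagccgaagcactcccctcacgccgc
Ifi44 held 3 matches, the first 2 of which overlap and read as 1 run of capitals, and Ifi44l held 2. The letters occur in 23.9% of the 32851 promoters, so a match is common. The stricter form with GAAA on both sides of any 2 bases, searched on both strands, was in neither promoter and in 3.44% of all promoters.

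Of 22 type I interferon response genes tested in monocytes, Ifi44 alone was called, 8 had positive folds and the median was -0.15. Isg15, an ubiquitin-like modifier, had 84.1, 6.30 and 16.2 CPM in HRY and 65.6, 21.2 and 19.1 CPM in WTY monocytes. The list's median was -0.48 over all cells, -0.11 in mature neutrophils, -0.54 in immature neutrophils and -0.10 in GMP, with none called. Cxcl10, an interferon-induced chemokine of another list, had 37.7, 3.78 and 6.38 CPM in HRY and 6.50, 5.54 and 2.67 CPM in WTY monocytes, and was not called (1.63 ± 0.42, adjusted p = 0.13). HRY.4 stood far above the rest. Ifi209, an interferon-induced DNA sensor outside these lists, fell by 0.59 on the log2 scale in monocytes. Ifi44 did not always follow the HR and WT name elsewhere in the series. Its unscaled monocyte level was 120, 125 and 176 CPM in HRO.7, HRO.8 and HRO.10 but 3.45 CPM in HRO.9. It was 89.2, 57.3 and 35.7 CPM in HRO.5, HRO.6 and HR.7, and 46.6 and 73.8 CPM in WTO.3 and WTO.4. In WBM_3 the HR samples were all above the WTY samples. Every sample of pool WBM_4 was low, with 5.89 and 0 CPM in HRO.11 and HRO.12, and 2.15 and 0 CPM in WTO.5 and WTO.6.

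Several genes known to be induced by glucocorticoids were lower in HRY monocytes. Fkbp5, a co-chaperone of the glucocorticoid receptor, had 62.8, 73.0 and 56.1 CPM in HRY and 75.4, 211 and 208 CPM in WTY samples. All HRY values were below all WTY values, by -0.26 on the log2 scale in WBM_1 and -1.69 in WBM_3 (-1.35 ± 0.20, adjusted p = 0.00391). Glul, the glutamine synthetase gene, had 96.7, 90.7 and 77.4 CPM in HRY and 114, 214 and 181 CPM in WTY monocytes (-0.94 ± 0.17, adjusted p = 0.0139). Tsc22d3, the leucine zipper protein GILZ, had 126, 175 and 90.1 CPM in HRY and 185, 295 and 225 CPM in WTY monocytes (-0.90 ± 0.18). The calls of all 3 genes were lost without WTY.5, with adjusted p of at most 0.19. Glul also lost its call without HRY.5 or HRY.6, and Tsc22d3 without HRY.6 or WTY.4. A list of 17 such genes was drawn up after these values were seen. Of its 15 members tested 3 were lower, 2 had positive folds, and the median was -0.90 against 0.00 for all genes, which is a description only.

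Among the other monocyte genes that fell was Nfkbia. Of 20 acute phase and inflammation genes it alone was called, with 7 positive folds and a median of -0.19, and of 13 genes of NF-kB subunits and feedback it alone was called, with 7 positive folds and a median of 0.02. Nfkbia, the inhibitor that holds NF-kB in the cytoplasm, had 150, 110 and 62.5 CPM in HRY and 272, 169 and 116 CPM in WTY monocytes (-0.82 ± 0.17). Hmox1, the haem-degrading oxygenase, had 62.8, 32.7 and 27.2 CPM in HRY and 111, 59.1 and 66.1 CPM in WTY monocytes (-1.01 ± 0.15). Both genes were lower in HRY within each pool, though HRY.4 overlaps the WTY samples of WBM_3. Bst1, an NAD-consuming surface enzyme, fell by 1.11 on the log2 scale and Cd244, a receptor of the SLAM family, by 1.69. Ptpn1, a tyrosine phosphatase that dampens cytokine signalling, fell by 0.56. Jaml, an adhesion molecule of migrating leukocytes, had 38.7, 29.0 and 39.1 CPM in HRY and 65.0, 57.3 and 71.0 CPM in WTY monocytes, without overlap (-0.83 ± 0.16). Ddi2, an aspartic protease that activates the proteasome factor Nrf1, had 103, 111 and 116 CPM in HRY and 148, 198 and 216 CPM in WTY monocytes, also without overlap (-0.76 ± 0.12). Cblb, a ubiquitin ligase that restrains receptor signalling, had 22.2, 21.4 and 23.8 CPM in HRY and 19.5, 65.6 and 66.4 CPM in WTY monocytes. Its fall lay in WBM_3, as did most of that of Spred1, an inhibitor of Ras signalling, with 12.6, 29.0 and 21.7 CPM in HRY and 17.5, 52.6 and 53.1 CPM in WTY monocytes. The calls of these 9 genes were lost without WTY.5. All but those of Hmox1 and Ddi2 were also lost without another WBM_3 sample, and those of Cblb and Spred1 without any one of them.

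Other genes that rose in monocytes came from several lists or none. Arsb, a lysosomal sulfatase, had 70.6, 283 and 201 CPM in HRY and 53.9, 93.3 and 77.9 CPM in WTY monocytes (1.22 ± 0.18, adjusted p = 0.00391). Lpl, lipoprotein lipase, had 59.9, 54.2 and 159 CPM in HRY and 13, 44.3 and 54.6 CPM in WTY monocytes (1.40 ± 0.26). The fatty acid desaturase gene Scd2 rose by 1.17, with all of the gain in WBM_3, and the respiratory chain gene Uqcr10 by 0.79. Irf8, the factor that directs progenitors to monocytes, had 447, 688 and 657 CPM in HRY and 346, 416 and 493 CPM in WTY monocytes (0.50 ± 0.10, adjusted p = 0.0409). Fosb had 0.967, 42.8 and 163 CPM in HRY and 2.60, 35.1 and 28.6 CPM in WTY monocytes, and HRY.6 stood far above the rest. Chil3 rose here as in GMP (0.54 ± 0.11). Arsb lost its call without WTY.5, and Uqcr10 without HRY.5. Lpl and Fosb lost theirs without HRY.6 or WTY.5, and Chil3 without HRY.5, HRY.6 or WTY.4. Irf8 and Scd2 lost theirs without any one WBM_3 sample.

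Ifi44 and Ifi44l were the only calls of the 27 that held without any single sample. Each of the other monocyte genes lost its call without 1 or more samples, most often WTY.5. Without WTY.5, 6 genes were called, and Fkbp5 had an adjusted p of 0.0935, Arsb 0.190 and Hmox1 0.111. Without HRY.4 or without WTY.3, 99 were called, and in a fit of all groups together 0 were. None of the markers of any class was called in monocytes, and immature neutrophil markers summed to 2202, 500 and 540 CPM in HRY and 2259, 578 and 609 CPM in WTY samples.

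In mature neutrophils 7 genes were higher (0.144% of 4850) and 6 lower (0.124%). Egr1, an immediate early transcription factor, had 41.2, 582 and 598 CPM in HRY.4, HRY.5 and HRY.6, against 6.13, 137 and 145 CPM in WTY.3, WTY.4 and WTY.5. Levels were lower in WBM_1 than in WBM_3, and within either pool every HRY value was above every WTY value (2.08 ± 0.17, adjusted p = 6.77e-06). Ptgs2, which encodes the prostaglandin synthase COX-2, showed the same layout. It had 33.0, 325 and 433 CPM in HRY and 9.19, 144 and 140 CPM in WTY samples (1.43 ± 0.18, adjusted p = 0.00095). Ier3, another immediate early gene, had 157, 334 and 318 CPM in HRY and 144, 146 and 139 CPM in WTY samples (0.996 ± 0.18), with the gap in WBM_3.

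Of the 15 immediate early genes tested in mature neutrophils, Egr1 and Ier3 rose, none fell, 11 had positive folds and the median was 0.49 against 0.00 for all genes. Jun, a partner of Fos in AP-1, had 16.5, 423 and 359 CPM in HRY and 30.6, 201 and 209 CPM in WTY samples; it was higher in HRY in WBM_3 alone and was not called. In immature neutrophils the median of this list was -0.11 over 15 members, and in monocytes 0.17 over 18. Hist1h1c, a linker histone gene, rose by 0.79, the non-coding RNA gene Gm36839 by 2.00 and the protein-coding gene BC100530 by 1.22.

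Fkbp5 fell in mature neutrophils as well. It had 65.9, 100 and 75.5 CPM in HRY and 58.2, 266 and 265 CPM in WTY samples, so the fall lay in WBM_3. Over both pools the fold was -1.46 ± 0.22 (adjusted p = 0.00427 by edgeR's test). Il1r2, the decoy receptor that captures interleukin-1, had 189, 230 and 215 CPM in HRY and 484, 351 and 373 CPM in WTY samples, without overlap (-0.84 ± 0.17, adjusted p = 0.0416). It too belongs to the list of glucocorticoid-induced genes, whose median here was -0.43 over 13 members. Sla, an adaptor that lowers antigen receptor signalling, had 173, 153 and 150 CPM in HRY and 178, 456 and 366 CPM in WTY samples (-1.20 ± 0.21). The factor gene Klf13 fell by 0.99 and Dennd4a, a regulator of vesicle traffic, by 1.53. Of the 13 calls, Egr1 and Ptgs2 held whichever sample was left out. BC018473 held in the 4 of 6 leave-outs in which it was tested. In all, 2 genes were called without HRY.5 and 92 without HRY.4. Fkbp5 and Sla lost their calls without HRY.5, HRY.6 or WTY.4 (adjusted p of 0.0732 to 0.254), Dennd4a without HRY.5 or WTY.4, and Il1r2, Klf13, Ier3 and Hist1h1c without any one WBM_3 sample. In the fit of all groups together 1 remained, Egr1. HRY.4 gave 131 mature neutrophils with 181435 UMIs, the thinnest of this class.

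**Figure D3:**
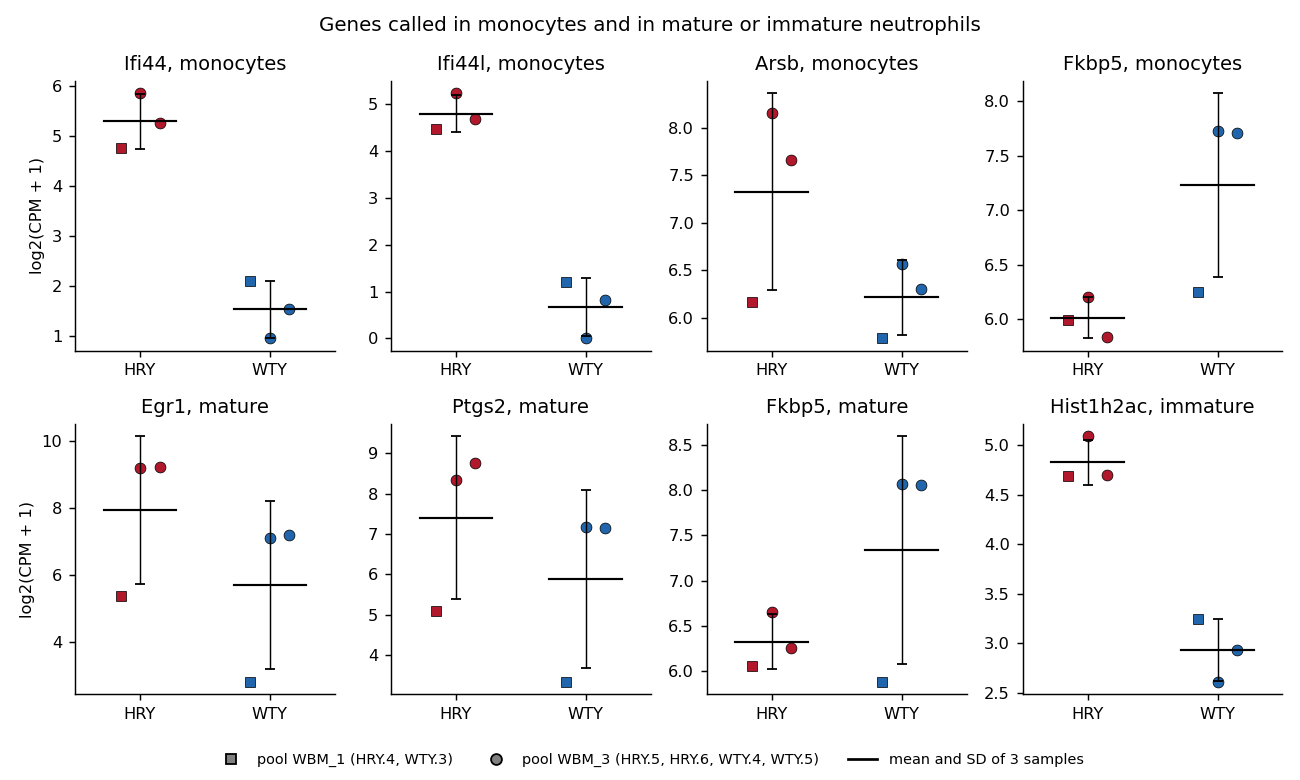
Levels of 4 genes in monocytes, 3 in mature neutrophils (Egr1, Ptgs2, Fkbp5) and 1 in immature neutrophils as log2(CPM + 1), HRY left of WTY; squares are WBM_1 samples, circles WBM_3 samples, and lines the mean and SD of 3 samples. For Ifi44, Ifi44l and Hist1h2ac the 3 HRY samples lie above all WTY samples, and for Egr1 and Ptgs2 the pools differ more than the groups do.

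In immature neutrophils 5 genes were higher (0.0604% of 8281) and 6 lower (0.0725%). Hist1h2ac, a replication-dependent H2A gene with polyadenylated forms and near-identical copies that could share reads, had 24.9, 33.1 and 25.0 CPM in HRY and 8.45, 5.11 and 6.64 CPM in WTY samples. These groups lay far apart (1.94 ± 0.27, adjusted p = 0.00294), though without WTY.4 the adjusted p was 0.0504. Hist1h2ac rose in GMP too, with 31.3, 26.8 and 40.2 CPM in HRY and 16.9, 6.15 and 11.4 CPM in WTY samples (1.27 ± 0.27). The linker histone gene H1f0 had 30.7, 52.0 and 47.1 CPM in HRY and 15.8, 22.5 and 23.9 CPM in WTY immature neutrophils (1.04 ± 0.18, adjusted p = 0.0273). Fcnb rose in this class as in GMP, with 890, 1000 and 709 CPM in HRY and 522, 497 and 517 CPM in WTY samples (0.76 ± 0.14, adjusted p = 0.0392). It is itself a marker of the gate. Mogat2, an acyltransferase of triglyceride synthesis, rose by 1.16, and Fbxl5, an iron sensor that marks an iron regulatory protein for breakdown, fell by 0.80. Fcnb, H1f0, Mogat2 and Fbxl5 each lost the call without any one of HRY.4, WTY.3, WTY.4 or WTY.5, with adjusted p of 0.05 to 0.534.

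The secondary and tertiary granule list as a whole did not follow Fcnb here: with Fcnb included, 6 of 15 had positive folds and the median was -0.11. All 28 cell cycle genes had positive folds in immature neutrophils, with a median of 0.25 against 0.00 for all genes, and none was called. The lowest in p was Pcna, the sliding clamp of DNA replication, with 89.2, 146 and 114 CPM in HRY and 78.2, 87.9 and 67.1 CPM in WTY samples (0.56 ± 0.16, adjusted p = 0.306). The immature class joins dividing and non-dividing cells, and their proportions were not tested.

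The remaining falls were transcripts of other cells, and they sat in WBM_1. Igkc, an immunoglobulin light chain, had 1226, 2.58 and 2.40 CPM in HRY and 4800, 4.09 and 7.30 CPM in WTY immature neutrophils. Jchain, of plasma cells, and the basophil genes Mcpt8 and Prss34 had 113 to 229 CPM in WTY.3, 18.0 to 46.9 CPM in HRY.4 and at most 0.480 CPM elsewhere. In WTY.3 the summed markers of basophil or mast cells (155 CPM), plasma cells (156 CPM) and stroma or endothelium (315 CPM) were also above those of HRY.4 (30.1, 41.2 and 17.2 CPM), while B lineage markers were not (89.0 against 103 CPM in HRY.4). Without HRY.4 or without WTY.3 the calls of all 4 genes were lost, with adjusted p of 0.424 to 1. Of the 11 calls, BC018473 alone held whichever sample was left out, and counts ran from 6 without WTY.4 to 58 without HRY.6. In the fit of all groups together 7 genes were called, 1 of them shared, Mogat2.

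In B lineage cells HRY.6 had 19 cells and was left out, so 2 HRY samples stood against 3 WTY samples. There 2 genes were higher (0.0755% of 2649) and 1 lower (0.0378%). Mif, the macrophage migration inhibitory factor, had 979 and 1113 CPM in HRY.4 and HRY.5, against 491, 317 and 499 CPM in WTY samples (1.2 ± 0.25). Ncl, the nucleolar protein nucleolin, had 958 and 1797 CPM in HRY.4 and HRY.5, against 453, 793 and 867 CPM in WTY samples (1.10 ± 0.23). Pycard, the inflammasome adaptor ASC, had 197.5 and 36.7 CPM in HRY.4 and HRY.5, against 662, 187 and 123 CPM in WTY samples (-1.78 ± 0.35). The adjusted p was 0.0165 for all 3 genes, DESeq2 called 0 at this threshold, with 209 genes at an unadjusted p under 0.05 by edgeR, none held in every leave-out, and HRY.5 rests on 25 cells. Counts ran from 1 without HRY.5 to 37 without HRY.4. T or NK cells and erythroid cells had too few samples with 20 cells for a fit.

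Several other lists held few or no calls. Of the interferon gamma and antigen presentation genes, 24 were tested in monocytes, 18 in mature neutrophils, 19 in immature neutrophils and 21 in GMP, and none was called, with medians of -0.08, -0.04, 0.13 and 0.10. In monocytes the class II genes H2-Eb1 (-0.61 ± 0.15, adjusted p = 0.120) and H2-Ab1 (-0.43 ± 0.13, adjusted p = 0.265) missed the threshold by edgeR's test. H2-Eb1 had 128, 66.7 and 96.1 CPM in HRY and 151, 165 and 134 CPM in WTY monocytes, and these values did not overlap.

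Chemokine and cytokine receptors had positive folds in few members, 5 of 19 in monocytes, 4 of 17 in mature neutrophils, 5 of 19 in immature neutrophils and 5 of 18 in GMP, with medians of -0.13, -0.17, -0.18 and -0.18. Il1r2 in mature neutrophils was the single call among them. The glycolysis and hypoxia list had medians between -0.03 and 0.06 in the 4 myeloid classes, and 0 of its 19 or 20 members were called. For the 12 genes of DNA methylation and demethylation in GMP, which include Tet2, the median was 0.01 with 0 called. Of 16 stem cell and leukaemia genes in GMP, Kit was called and 11 had positive folds, with a median of 0.13. Kit was itself a marker of the gate. Myb, a factor of progenitor growth, had 437, 587 and 540 CPM in HRY and 390, 403 and 453 CPM in WTY GMP, and was not called (0.30 ± 0.10, adjusted p = 0.295). Irf8, called higher in monocytes, was not called in GMP (-0.47 ± 0.16, adjusted p = 0.295), where it had 301, 218 and 304 CPM in HRY and 247, 471 and 485 CPM in WTY samples.

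The difference between groups was also set out per pool for each called gene. Of the called genes, 23 of 27 in monocytes, 11 of 13 in mature neutrophils, 8 of 11 in immature neutrophils and 28 of 31 in GMP had the same sign in both pools, which the choice by p favours. A group by pool term, added after the data were seen, was below an adjusted p of 0.05 for 20 genes in monocytes, 13 in mature neutrophils, 6 in immature neutrophils and 36 in GMP. Among the called genes it was so for S100a9, Ngp, S100a8, Cd63 and Klf4 in GMP and Fkbp5 in monocytes, all with larger differences in WBM_3. In WBM_3 alone, where Xist and Ddx3y match, 136 of 8337 genes were called in GMP and 93 of 8970 in monocytes. These held 27 of the 31 GMP calls and 25 of the 27 monocyte calls. In mature neutrophils 34 of 4707 genes were called, 13 of the 13 calls among them. In immature neutrophils 7 of 7819 were called, with 2 of the 11 calls, BC018473 and Hist1h2ac. The WBM_3 fits reuse samples that made the calls, which favours the overlap. Without pool as a term edgeR called 0 genes in any class, with 22 to 215 genes per class at an unadjusted p under 0.05.

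**Figure D4:**
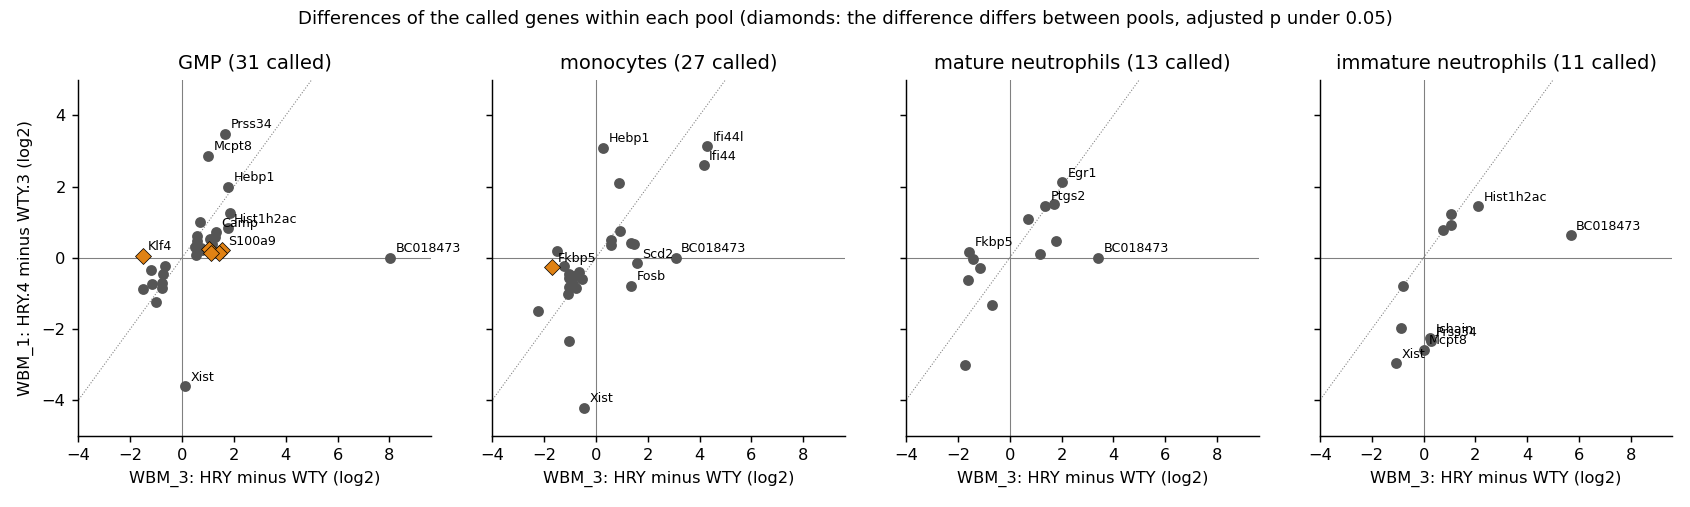
Each point is a called gene in GMP, monocytes, mature neutrophils or immature neutrophils, placed by its HRY minus WTY difference in log2 CPM within WBM_3 (x axis) and WBM_1 (y axis); the dotted line marks equal differences and diamonds mark genes whose difference differs between pools. Most points lie in the quadrants of equal sign, while Xist, Mcpt8 and Prss34 in immature neutrophils and BC018473 lie along an axis.

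BC018473 (ENSMUSG00000056032) was called in 5 fits, more than any other gene. It lies on the plus strand of chromosome 11 at 116752167 to 116759373 in GRCm38, and the GENCODE vM21 annotation types it as antisense. Whether the counting used strand is not given in the sources used here, so its reads cannot be told apart from those of a partner on the other strand. Over all cells it had 0.158, 260 and 166 CPM in HRY.4, HRY.5 and HRY.6, against 0, 3.44 and 0.737 CPM in WTY.3, WTY.4 and WTY.5. HRY.4 thus lay with the WTY samples. In GMP of WBM_3, 1216 counts of HRY stood against 0 of WTY, at least 172-fold higher with 3 counts over the group as the limit for 0. It was not seen in either WBM_1 sample in GMP. Among all 20 samples the unscaled level over all cells was 189 to 297 CPM in HRY.5, HRY.6, HRO.9, HRO.11, HRO.12 and WTO.6, and at most 4.11 CPM in the other 14. The gene therefore split samples within groups and within pools, and its level did not follow the HR and WT names.

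**Figure D5:**
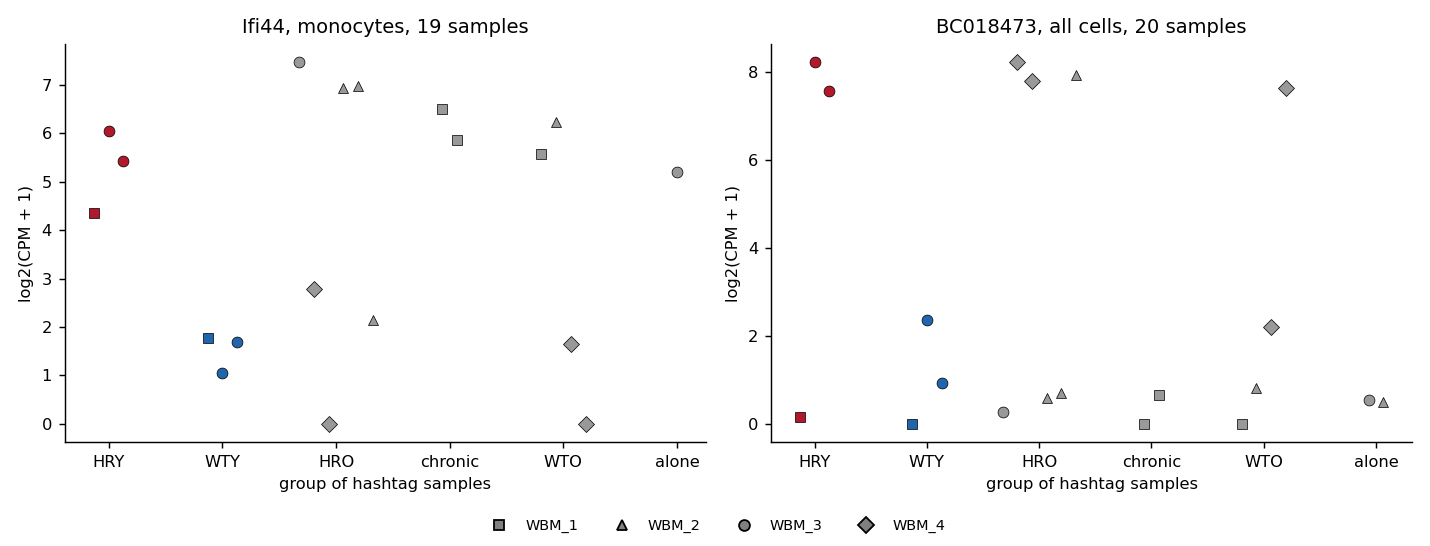
Unscaled levels as log2(CPM + 1) of Ifi44 in monocytes (19 samples with at least 20 cells) and of BC018473 over all cells (20 samples), by group, with marker shape for the pool; HRO.5 and HRO.6 are the chronic samples, and HR.7 and HR.AE stand alone. Low and high levels of each gene occur among HRO and among WTO samples, and HRY.4 lies with the HRY samples for Ifi44 alone.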

How the data were processed

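Cells were hashed, pooled and sequenced with a droplet 3′ kit, per the labels' protocols. The authors deposited raw UMI counts per gene and barcode, with no normalisation, for 31053 genes, and hashtag counts. Tools named in the submitters' processing notes are Cell Ranger, bcl2fastq and Seurat, with build mm10, and the file headers name Cell Ranger 3.0.0 for WBM_1 and 3.1.0 for the other pools. Sources used here do not give the annotation, the rule that kept barcodes or the strand setting.

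Hashtags were assigned per library with HTODemux of Seurat 5.3.0 (centred log-ratio across cells, quantile 0.99), the method named in the series text. Singlets with at least 300 genes and under 10% mitochondrial UMIs were kept, and of barcodes shared by the WBM_3 libraries the copy with fewer UMIs was dropped. Doublets were removed by hashtag only in the values reported, since Scrublet called 0% in both WBM_3 libraries (8.46% in WBM_1). Each cell was gated from 17 lists holding 123 markers: markers were log-normalised to 10000 UMIs and scaled to their percentile 99, and the class with the highest mean was taken at a score of at least 0.2 with a lead of 0.05. The share of cells near these limits was 7.44% in GMP and 5.60% in monocytes, and 831 cells stayed ungated. Of gated monocytes 91.9% lay in Leiden clusters (scanpy 1.11.5) named monocyte, of gated GMP 66.6% in GMP clusters. Of the 25 gated conventional dendritic cells 100% lay in the cluster named macrophage.

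Sums of counts over the cells of a class in a hashtag sample, for samples of at least 20 such cells, entered edgeR 4.0.16 (TMM, filterByExpr, quasi-likelihood test, group and pool as terms, Benjamini-Hochberg adjustment at 0.05 over all genes tested). SE is the absolute fold over the square root of F. Differences within a pool use a prior count of 2. Named genes were, per class, up to 8 of the largest rises and falls among called genes of at least 20 CPM, the 3 of lowest p, up to 4 of lowest p from each of 20 lists, and Tet2, Xist and Ddx3y. Ddi2, Gm19951, Jaml, Tsc22d3, Ifi209, Ptpn1 and Hebp1 in monocytes, Hebp1, Pglyrp1, Cd63, Hspa8, Wfdc21, Serpinb1a and Clec4a2 in GMP, BC018473 in monocytes and Hist1h2ac in immature neutrophils were called and are outside this rule. The Jun and Isg15 values, Ifi44 outside these samples and S100a9 in B lineage cells were also picked after values were seen. Members and lists were chosen with earlier results of these data known. Coordinates come from GENCODE vM21 (GRCm38), promoter sequences from RefSeq (GRCm38.p6), where both Ifi44 and Ifi44l matched. DESeq2 1.42.0, other filters, hashtag forms, doublet and class definitions were alternatives.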

Additional observations from a re-analysis of the deposited data

Results flagged for a closer look

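For 6 of the called genes the HRY to WTY difference itself differed between the pools by edgeR's group by pool term. In GMP the WBM_3 minus WBM_1 difference in log2 fold was 1.34 for S100a9 (adjusted p = 5.13e-08), 1.33 for Ngp (2.21e-05), 0.81 for S100a8 (0.00105) and 0.96 for Cd63 (0.00374), and -1.60 for Klf4 (0.00477). In WBM_3 the differences were 1.56, 1.42, 1.05, 1.11 and -1.52 on the log2 scale, against 0.22, 0.14, 0.24, 0.14 and 0.06 in WBM_1. In monocytes Fkbp5 gave -1.50 (adjusted p = 0.0265), with -1.69 in WBM_3 and -0.26 in WBM_1. The WBM_1 value rests on 1 sample of each group, which also differ in Xist and Ddx3y. What part the pool has in these values was not tested.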

How the results depend on the processing

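The number of called genes moved with nearly every choice. In the order all cells, monocytes, mature neutrophils, immature neutrophils, GMP and B lineage, edgeR called 1, 27, 13, 11, 31 and 3 genes. DESeq2 called 49, 10, 13, 4, 13 and 0, and edgeR without a filter on low counts 464, 118, 49, 137, 85 and 8. The fit with no replicate block, where pool is the block, called 0, 0, 0, 0, 0 and 0, and the fit of all hashtag groups together 0, 0, 1, 7, 1 and 0. WBM_3 alone gave 21, 93, 34, 7, 136 and 35, and the hashtag log-ratio within each cell 1, 57, 20, 5, 36 and 11. Under 5% mitochondrial UMIs the first 5 were 6, 19, 16, 11 and 8, and B lineage cells could not be fitted. Without the top 5% of Scrublet scores the counts were 7, 26, 13, 11, 37 and 6, and with Leiden classes 29, 34, 11, 56 and 3 in the 5 classes. Leaving out 1 sample at a time gave 1 to 24, 6 to 99, 2 to 92, 6 to 58, 10 to 155 and 1 to 37.

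Of 86 calls, 38 held with DESeq2, 86 with no filter, 3 with all groups, 67 of 84 with Leiden classes and 0 of 74 without the pool term. Tet2, never called, turned in sign in monocytes to -0.021 (log-ratio within each cell) and -0.026 (mitochondrial limit), and in GMP to 0.036 (no replicate block). With 1 sample left out Tet2 ran from -0.13 to 0.21 in monocytes and from -0.066 to 0.0080 in GMP. With Leiden classes Jchain in immature neutrophils turned to 0.20 and Prss34 in immature neutrophils to 0.14. With 1 sample left out these ran from -2.28 to 2.17 and from -2.40 to 2.17, and Mcpt8 in immature neutrophils from -2.65 to 0, turning without HRY.4 or WTY.3. The causes were not tested.

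No class share could pass under the alternatives that used the exact permutation test, whose smallest p is 0.167 or more. By edgeR's quasi-likelihood test on cell numbers none passed (lowest adjusted p = 0.402). The GMP difference ran from 2.48 to 5.73 percentage points. With 3 samples a group, 27 WTY.4 GMP cells and 1 pair in WBM_1, small differences were not detectable, and counting error is only part of the spread.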

Other observations

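Nfkbia, called lower in monocytes alone, had 206, 141 and 158 CPM in HRY and 263, 233 and 212 CPM in WTY immature neutrophils, without overlap, and was not called there (-0.49 ± 0.12, adjusted p = 0.247 by edgeR's quasi-likelihood test). Lrg1, a secreted glycoprotein of neutrophil granules, had 231, 210 and 191 CPM in HRY and 1446, 268 and 334 CPM in WTY mature neutrophils. All HRY values were below all WTY values, WTY.3 stood far above the rest, and the gene was not called (-1.15 ± 0.27, adjusted p = 0.0987). Btg2, an antiproliferative immediate early gene, had 280, 1347 and 1219 CPM in HRY and 230, 814 and 703 CPM in WTY mature neutrophils, higher in HRY in each pool and also not called (0.66 ± 0.17, adjusted p = 0.111). The fold of Cx3cr1, the fractalkine receptor of patrolling monocytes, was 0.62 ± 0.15 in monocytes, with 269, 166 and 245 CPM in HRY and 128, 157 and 160 CPM in WTY samples (adjusted p = 0.0932). These 4 genes were picked after their values were seen, and Cx3cr1 is also one of the monocyte markers used for the gate.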
